A study of Oryctolagus cuniculus with 9 samples.

Results

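ADAMTS proteases and BMP1 are secreted zinc metalloproteinases that cut and mature the proteins of the cartilage matrix. The genes followed were ADAMTS4, ADAMTS8, ADAMTS2, BMP1 and ADAMTS10, and all 5 were found by their symbol among the 14870 genes of the deposited tables, each as a single row. They were taken by name and not by their values. RNA sequencing had been performed on cartilage of New Zealand white rabbits, selected at 4 to 5 months of age, 12 weeks after a full-thickness defect was drilled into the trochlear groove of both knees. The defect of the right knee had received a collagen-chondroitin sulphate scaffold (CLCS) and that of the left knee had been left untreated, so every animal carried both. The 9 libraries comprise 3 of each group, named healthy (Control in the labels), untreated and CLCS. The labels do not give the site of the healthy tissue, which appears to be the condyle in a drawing of the study, and if so, site and injury cannot be told apart. Neither the labels nor the methods say whether libraries of equal number come from the same rabbit, and p-values measure the spread between these samples only.

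The ADAMTS enzymes (a disintegrin and metalloproteinase with thrombospondin motifs) fall into classes by substrate. Aggrecanases such as ADAMTS4 and, less actively, ADAMTS8 cleave aggrecan, the large proteoglycan that holds water in cartilage, and their activity is linked with its loss in osteoarthritis. ADAMTS2 is a procollagen N-proteinase, which removes the amino-terminal propeptide of fibrillar procollagens. BMP1, which despite its name is a tolloid protease and no growth factor of the BMP family, is a procollagen C-proteinase, and removal of the carboxy-terminal propeptide allows fibrils to assemble. ADAMTS10 associates with fibrillin microfibrils.

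The deposited values are normalized reads, whole read numbers divided by a size factor of the library, and whole reads were recovered from them. Totals lay between 724986 and 1226408 reads per library. A single gene, ENSOCUG00000023467, took 1.49% of the reads in untreated replicate 3 and 49.4% in CLCS replicate 3, the library with the highest total. The totals are thus no direct measure of the depth left for the members. All members were measured by few reads, at most 82 in any library, so counting error weighs on every value below. Of the 18 cartilage markers examined, 12 have a row, led by COL2A1, while MATN1 and MATN3 had 3 reads or fewer in every library. Untreated replicate 3 stood apart, with a summed cartilage marker level of 757 normalized reads against 5133 or more in all other libraries. CLCS replicate 3 had the highest level, 28092, against at most 12041 in healthy libraries. COL2A1 alone gave 25533.5 of this level and 458 of that in untreated replicate 3, so the sums mostly follow this gene.

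ADAMTS4 (ENSOCUG00000013498) was read in every library and its groups overlapped. Its normalized reads were 32.0, 61.9 and 42.5 in healthy replicates 1 to 3, 56.7, 59.0 and 74.3 in untreated and 55.8, 59.0 and 42.3 in CLCS libraries. Healthy replicate 2 exceeded both lower untreated libraries and all of the CLCS libraries. The means were 45.5 ± 15.2, 63.4 ± 9.58 and 52.4 ± 8.86 (SD, n = 3). The difference, estimated by limma (linear models with a spread shared across genes) on log2 of normalized reads plus 1, was 0.51 in untreated (SE 0.33, adjusted p = 0.533) and 0.24 in CLCS against healthy samples (SE 0.33, adjusted p = 0.765).

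ADAMTS8 (ENSOCUG00000000370) had 28.3, 17.3 and 18.1 normalized reads in healthy, 15.0, 20.0 and 7.25 in untreated and 27.9, 15.7 and 6.23 in CLCS libraries. Replicate 3 was the lowest of both defect groups, and the CLCS libraries spanned nearly the whole range of the gene. Its log2 difference was -0.63 in untreated (SE 0.42, adjusted p = 0.548) and -0.51 in CLCS samples (SE 0.51, adjusted p = 0.668). The latter was 0.02 without CLCS replicate 3, so its sign rests on that library. With a difference above 0 for ADAMTS4 and below 0 for ADAMTS8, and neither past the test, the aggrecanases showed no common direction.

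ADAMTS2 (ENSOCUG00000001035) had its lowest reads of both defect groups in replicate 2. Healthy libraries had 8.48, 5.07 and 3.61 normalized reads, untreated libraries 18.1, 3.00 and 19.0, and CLCS libraries 18.6, 5.90 and 27.4. Replicates 1 and 3 of both defect groups lay above all healthy libraries, whereas replicate 2 was within the healthy range in CLCS and below it in untreated samples. The variance of the recovered reads was 7.74 times their mean in untreated and 4.52 times in CLCS samples, and 1.17 times in healthy cartilage. Counting alone gives about 1, and separate tissue samples can exceed it for any gene. The log2 difference was 0.84 in untreated (SE 0.66, adjusted p = 0.610) and 1.28 in CLCS samples (SE 0.55, adjusted p = 0.285). Without untreated replicate 2 the former was 1.61 (adjusted p = 0.174), and without CLCS replicate 2 the latter was 1.88 (adjusted p = 0.110).

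**Figure D1:**
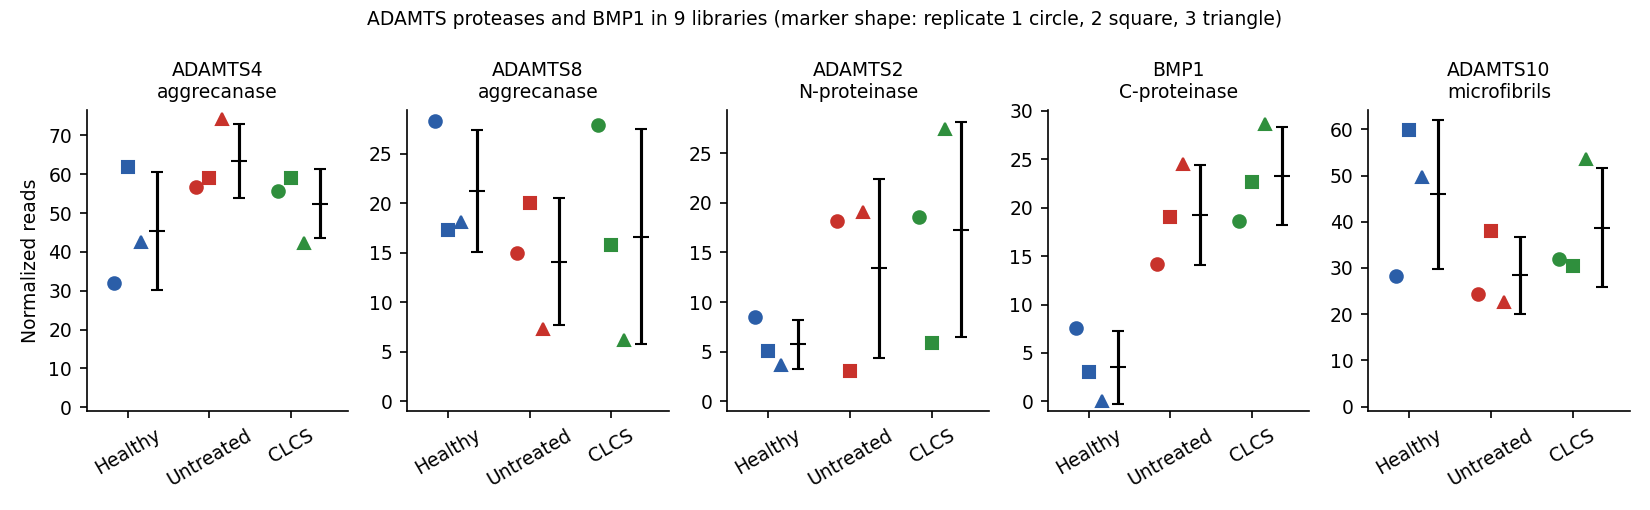
Normalized reads (vertical axis) of each protease gene in the healthy, untreated and CLCS groups. Points are libraries, with the replicate number as marker shape, and the bar beside them is the mean ± SD of 3 libraries. BMP1 is the one gene whose defect libraries, from 14.2 upwards, all lie above the healthy ones, which reach 7.54, and the ADAMTS2 points of replicate 2 (squares) lie apart from the other defect libraries.

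BMP1 (ENSOCUG00000010592) was the member with the largest difference from healthy cartilage. Its normalized reads were 7.54, 3.04 and 0 in healthy, 14.2, 19.0 and 24.5 in untreated and 18.6, 22.6 and 28.6 in CLCS libraries. All 6 of 6 defect libraries lay above every healthy library. In recovered reads this was 8, 3 and 0 against 18 to 27 in untreated and 18 to 23 in CLCS samples, and a count of 0 allows up to 3 reads. Healthy cartilage averaged 3.53 ± 3.79, untreated defects 19.2 ± 5.15 and CLCS defects 23.3 ± 5.05 normalized reads (SD, n = 3), a ratio of means of 5.45 and 6.60 to healthy samples. Within the defect groups the variance of the reads was 1.14 and 0.391 times their mean, close to counting noise. In healthy cartilage it was 4.45 times the mean, above counting noise, and every difference of BMP1 from healthy samples rests on that group.

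The log2 difference of BMP1 was 2.60 in untreated (95% interval 0.88 to 4.33, SE 0.74, unadjusted p = 0.00893, adjusted p = 0.127 from limma) and 2.88 in CLCS samples (1.21 to 4.54, SE 0.71, unadjusted p = 0.00426, adjusted p = 0.0833). Neither passed the threshold of 0.05 over all genes. By unadjusted p the gene ranked 245 of 3496 genes tested in untreated and 168 of 3294 in CLCS samples. The call depended on the test. DESeq2, run here on the recovered reads, gave an adjusted p of 0.0722 in untreated and 0.0205 in CLCS samples when fitted to the 6 libraries of a comparison, and 0.0151 and 0.00642 when fitted to all 9. The quasi-likelihood test of edgeR gave 0.165 and 0.0890. Without healthy replicate 1, the healthy library with the most BMP1 reads, the CLCS difference was 3.57 and passed in limma (adjusted p = 0.0462). Without healthy replicate 3, the library at 0, the differences were 1.75 and 2.03. Leaving out untreated replicate 3 gave 2.42 (adjusted p = 0.266).

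**Figure D2:**
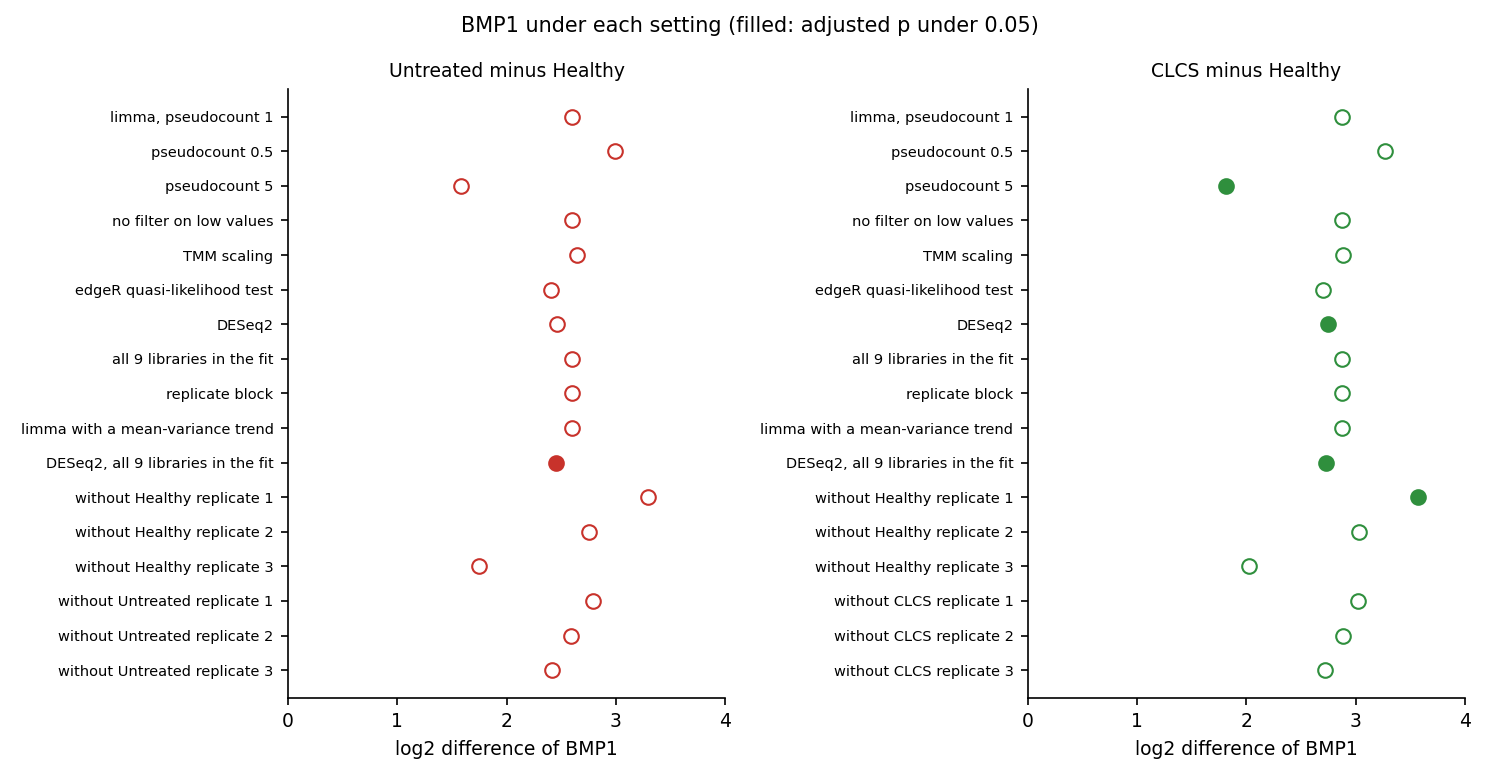
Log2 difference of BMP1 (horizontal axis) in untreated (left) and CLCS (right) against healthy samples under each analysis setting (vertical axis). Filled points have an adjusted p under 0.05: 1 setting in untreated samples and 4 in CLCS samples. All estimates lie above 0, between 1.58 and 3.30 in untreated and between 1.81 and 3.57 in CLCS samples.

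ADAMTS10 (ENSOCUG00000026658) had 28.3, 59.9 and 49.7 normalized reads in healthy, 24.4, 38.0 and 22.7 in untreated and 32.0, 30.5 and 53.5 in CLCS libraries. Healthy replicate 1 was below the highest library of either defect group, and CLCS replicate 3 was also above healthy replicate 3, so the groups overlapped. The means were 45.9 ± 16.1, 28.4 ± 8.40 and 38.7 ± 12.9 (SD, n = 3), with a log2 difference of -0.65 in untreated (SE 0.38, adjusted p = 0.486) and -0.22 in CLCS samples (SE 0.38, adjusted p = 0.814). Without healthy replicate 1 the untreated difference was -0.96 (adjusted p = 0.299), and without healthy replicate 2 the CLCS difference was close to 0 (-0.0033).

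Counted over the members, limma called 0 of 5 in untreated samples, where it called 2.55% of all genes tested, and 0 of 5 in CLCS samples, where it called 3.16%. Of all genes, 1.34% were called higher and 1.20% lower in untreated, and 2.13% higher and 1.03% lower in CLCS samples. An unadjusted p under 0.05 was found for 1 of 5 in each, against 16.6% and 17.5% of all genes (8.64% and 9.14% on the higher side). In CLCS samples it was 2 of 5 with edgeR, with DESeq2 on 6 or all 9 libraries and in a limma fit blocked by replicate number, where ADAMTS2 had an unadjusted p of 0.0358 (adjusted p = 0.211) against 0.0504 in limma without the block. DESeq2 on 6 libraries called 0 and 1 members, against 5.53% and 5.48% of all genes, and edgeR called 0 and 0, against 2.49% and 3.73%. DESeq2 on all 9 libraries called 1 and 1, against 6.40% and 4.41%. BMP1 was the gene called each time. The groups lay apart for 1 of 5 members in both comparisons, against 22.0% of all genes in untreated and 24.2% in CLCS samples, of which those higher made up 11.3% and 12.2% of all genes. The share of members was thus near the background by this measure. Both comparisons share the healthy libraries, in which BMP1 was low, so these are not independent contrasts.

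**Figure D3:**
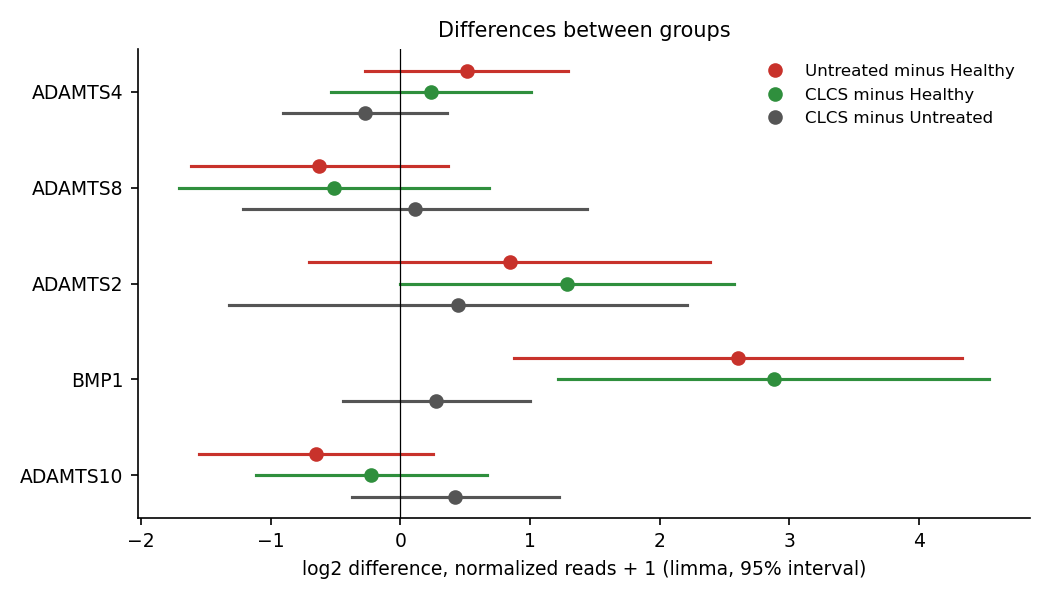
Log2 difference between groups (horizontal axis, normalized reads plus 1) for each gene, with the 95% interval of limma, in untreated against healthy (red), CLCS against healthy (green) and CLCS against untreated samples (grey). The intervals of BMP1 against healthy samples start at 0.88 and 1.21, while all intervals of the ADAMTS genes and all grey intervals include 0.

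The direct comparison asks whether the scaffold changed the proteases of a defect. No member passed the test between CLCS and untreated samples: limma, edgeR and DESeq2 each called 0 of 5, 0 of 5 had an unadjusted p under 0.05 in any of them, and limma called 0 of the 3275 genes tested (0.00%), of which 95 (2.90%) had an unadjusted p under 0.05. The log2 difference of BMP1 was 0.28 with a 95% interval of -0.45 to 0.997. It was -0.27 for ADAMTS4 (-0.91 to 0.36), 0.11 for ADAMTS8 (-1.22 to 1.44), 0.44 for ADAMTS2 (-1.32 to 2.21) and 0.42 for ADAMTS10 (-0.37 to 1.22). These intervals come from the fit without pairing. With equal replicate numbers taken as pairs, limma gave -0.22 to 1.11 for ADAMTS2 and -0.30 to 0.85 for BMP1, both higher in CLCS in 3 of 3 pairs, with an adjusted p of 0.884 for each. The paired interval was -0.70 to 0.93 for ADAMTS8, -0.98 to 0.43 for ADAMTS4 and -0.47 to 1.31 for ADAMTS10, so all of them include 0. All groups overlapped for every member, where 8.34% of the genes tested lay apart (3.82% higher and 4.52% lower in CLCS samples).

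The classes were then contrasted within each library, where the scaling of the library cancels. These ratios are not corrected for transcript length and only their differences between groups are read. The log2 ratio of BMP1 to the summed aggrecanases ADAMTS4 and ADAMTS8 was -2.84, -4.31 and -5.94 in healthy, -2.26, -2.00 and -1.70 in untreated and -2.11, -1.68 and -0.74 in CLCS libraries. BMP1 thus took a larger part relative to ADAMTS4 plus ADAMTS8 in each defect library than in any healthy library. The reads of BMP1 alone already set these libraries apart (14.2 or more against 7.54 or less), so the ratio is no independent result. Other genes of either class are not in this ratio. The mean difference was 2.38 in untreated and 2.85 in CLCS samples (exact two-sided permutation test, p = 0.1 in both, the smallest p that 3 against 3 libraries allow, adjusted p = 0.3 over 9 comparisons). The lowest healthy value is that of replicate 3, where BMP1 had 0 reads and the pseudocount of 1 sets the ratio. Without it the differences were 1.59 and 2.06. BMP1 to ADAMTS2 differed by 1.76 in untreated (exact permutation p = 0.2, adjusted p = 0.36) and by 1.59 in CLCS samples (exact permutation p = 0.1, adjusted p = 0.3), and without healthy replicate 3 by 1.15 and 0.98. ADAMTS2 to the aggrecanases differed by 0.62 and 1.26, with overlapping groups (exact permutation p = 0.4 and 0.2, adjusted p = 0.514 and 0.36). Between CLCS and untreated samples the 3 ratios differed by 0.47, -0.17 and 0.64 in the order given here (exact permutation p = 0.4, 0.8 and 0.7, adjusted p = 0.514, 0.8 and 0.788).

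**Figure D4:**
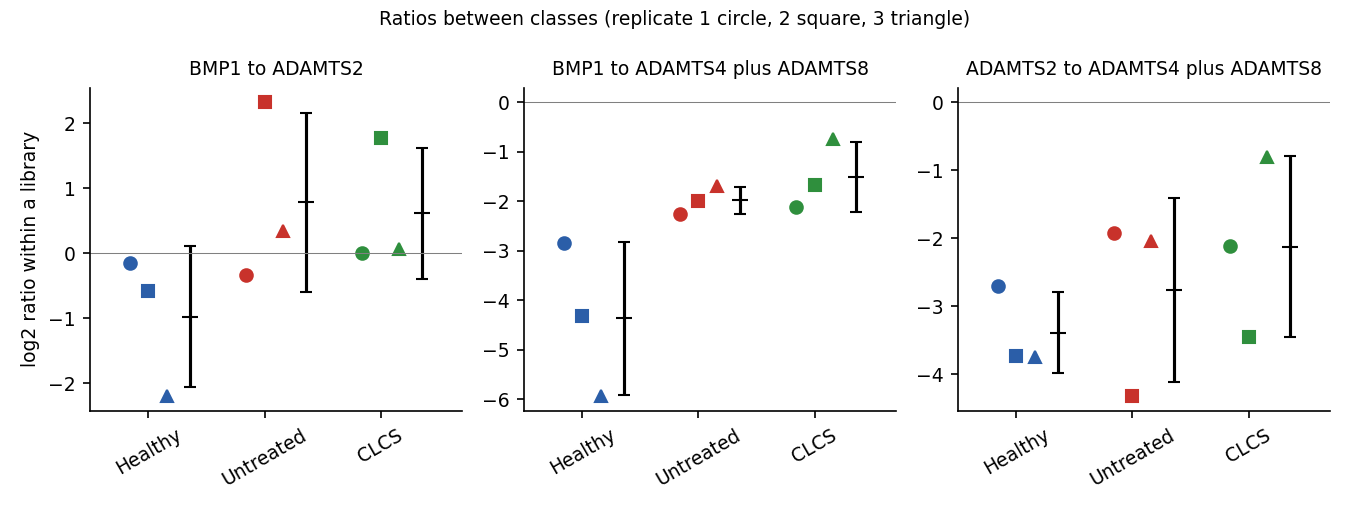
Log2 ratio between protease classes within a library (vertical axis), computed from normalized reads plus 1, by group. Points are libraries and bars the mean ± SD of 3 libraries. For BMP1 to ADAMTS4 plus ADAMTS8 the defect libraries, at -2.26 or higher, lie above the healthy ones, at -2.84 or lower.

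Other genes of these pathways were examined by lists. Of the other hyalectan-cleaving ADAMTS genes, none had enough reads to be tested: ADAMTS5, the major aggrecanase of mouse cartilage, had 0 to 7 reads in healthy, 3 to 6 in untreated and 4 to 11 in CLCS libraries, and ADAMTS1 had 3 to 5, 2 to 16 and 3 to 9. Of the N-proteinases, ADAMTS3, which prefers type II procollagen, had 0 reads in all 3 healthy libraries and 2 to 6 in each defect library, too few for a test or a fold. ADAMTS14 had 2 reads or fewer in every library. In all, 19 ADAMTS and ADAMTS-like symbols have a row, 6 were tested, and 10 stayed under 10 reads in every library. Of the C-proteinases and their enhancers, TLL1, TLL2 and PCOLCE have no row. PCOLCE2, an enhancer of BMP1, had 49.7 to 101.8 normalized reads in healthy against 31.0 to 38.4 in all defect libraries, the opposite order to BMP1. Its log2 difference was -0.94 in untreated (adjusted p = 0.232) and -0.88 in CLCS samples (adjusted p = 0.236). ADAMTSL4, a microfibril-associated relative without protease activity, had -0.88 (adjusted p = 0.259) and -0.95 (adjusted p = 0.137), also with groups that lay apart. Among 8 inhibitor and clearance genes, 2 were tested and 0 called by limma, with 0 at an unadjusted p under 0.05: TIMP3, which inhibits ADAMTS4, had a log2 difference of 0.95 and 0.96 (adjusted p = 0.490 and 0.391), and LRP1, an endocytic receptor for ADAMTS proteases, -0.73 and -1.11 (adjusted p = 0.714 and 0.415).

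Substrate genes included calls. Of the fibrillar procollagens, 7 were tested against healthy samples and 2 rose in each comparison, COL1A1 by 3.79 and 3.95 (adjusted p = 0.0398 and 0.0277) and COL1A2 by 3.68 and 3.53 (adjusted p = 0.0292 and 0.0288) on the log2 scale in untreated and CLCS samples. The median of the list was 0.06 and 0.71, against -0.02 and -0.08 over all genes tested. Apart from substrates, 8 genes of the activation and trafficking of protease precursors were listed, of which 3 were tested. POSTN, a matrix protein that binds BMP1, was the 1 called by limma and rose by 4.69 in both (adjusted p = 0.0286 and 0.0168). FN1 went the other way, by -0.72 and -0.93 (adjusted p = 0.657 and 0.487), and PCSK7 had 1.71 and 2.29 (adjusted p = 0.570 and 0.260). OGN, a small proteoglycan matured by BMP1, fell by 3.20 and 2.63 (adjusted p = 0.0490 and 0.0240), the single called gene among the 8 and 7 tested of 12 other tolloid substrates and cross-linking genes. For each of the called genes at most 3 of the 6 fits that left out a library kept the call in a comparison, while the differences stayed between 3.06 and 4.64 for the collagens, 4.03 and 5.50 for POSTN and -3.70 and -2.36 for OGN. Such fits called 2 to 7 genes in all in untreated and 0 to 81 in CLCS samples. Of the 10 other settings, 3 lost the call of COL1A1 in untreated samples (edgeR, adjusted p = 0.0548, TMM scaling, 0.0511, and no filter, 0.0641). The call of OGN in untreated samples was lost in 4 (replicate block, adjusted p = 0.0637, pseudocount 0.5, 0.0628, TMM scaling, 0.0543, and no filter, 0.0729). Without the filter those of COL1A2 in both comparisons and of COL1A1 and OGN in CLCS samples were lost too, and POSTN kept its calls in all 10. Aggrecan (ACAN) had a log2 difference of -1.19 in untreated (adjusted p = 0.278) and -0.30 in CLCS samples (adjusted p = 0.749), and 0 of the 2 tested genes of the hyalectan and link protein list were called by limma. An unadjusted p under 0.05 was found for 2 of 2 in untreated and 0 of 2 in CLCS samples, against 16.6% and 17.5% of all genes. Between CLCS and untreated samples ACAN differed by 0.89 (unadjusted p = 0.106, adjusted p = 0.996).

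Reads of a protease were also set against those of its substrate, a measure chosen after the values were seen. BMP1 had 1.77, 2.08 and 0 reads per 100 reads of COL1A1 and COL1A2 in healthy, 0.555 to 1.21 in untreated and 0.590 to 1.43 in CLCS libraries, with overlapping groups (exact permutation p = 0.6 and 0.8, adjusted p = 0.764 and 0.8 over 12 comparisons). The overlap rests on healthy replicate 3, with 0 BMP1 reads beside 79 reads of these collagens. Without it both healthy libraries lay above all defect libraries, and the difference was -1.05 in place of -0.406 in untreated and -0.856 in place of -0.214 in CLCS samples. ADAMTS2 had 1.99, 3.47 and 5.06 per 100 in healthy libraries, above all untreated (0.192 to 0.709) and CLCS libraries (0.309 to 1.37; exact permutation p = 0.1 in both, adjusted p = 0.24). Reads of these collagens were 79 to 453 in healthy, 1565 to 3244 in untreated and 1607 to 3050 in CLCS libraries. Mean ADAMTS2 was 5.72, 13.4 and 17.3 normalized reads in the same order. The lower ratio thus comes from the collagen reads, not from a lower ADAMTS2 mean. ADAMTS4 and ADAMTS8 together had 10.5, 15.1 and 19.7 reads per 100 ACAN reads in healthy, 25.6, 28.6 and 81.8 in untreated and 33.8, 19.5 and 9.26 in CLCS libraries. All untreated libraries lay above the healthy ones (exact permutation p = 0.1, adjusted p = 0.24), and CLCS libraries spanned them (exact permutation p = 0.7, adjusted p = 0.764). The highest value came from untreated replicate 3, the library with few cartilage reads. Without it the mean difference between untreated and healthy samples was 12.04 in place of 30.3 reads per 100. BMP1 had 0 to 0.0875 reads per 100 reads of COL2A1, the type II procollagen of cartilage, in healthy libraries, 0.161, 0.468 and 5.35 in untreated and 0.112 to 0.249 in CLCS libraries, with both defect groups above the healthy one (exact permutation p = 0.1 in both, adjusted p = 0.24). The untreated difference of 1.95 was 0.272 without replicate 3. Between CLCS and untreated samples all 4 measures overlapped (exact permutation p from 0.3 to 0.7, adjusted p from 0.514 to 0.764).

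**Figure D5:**
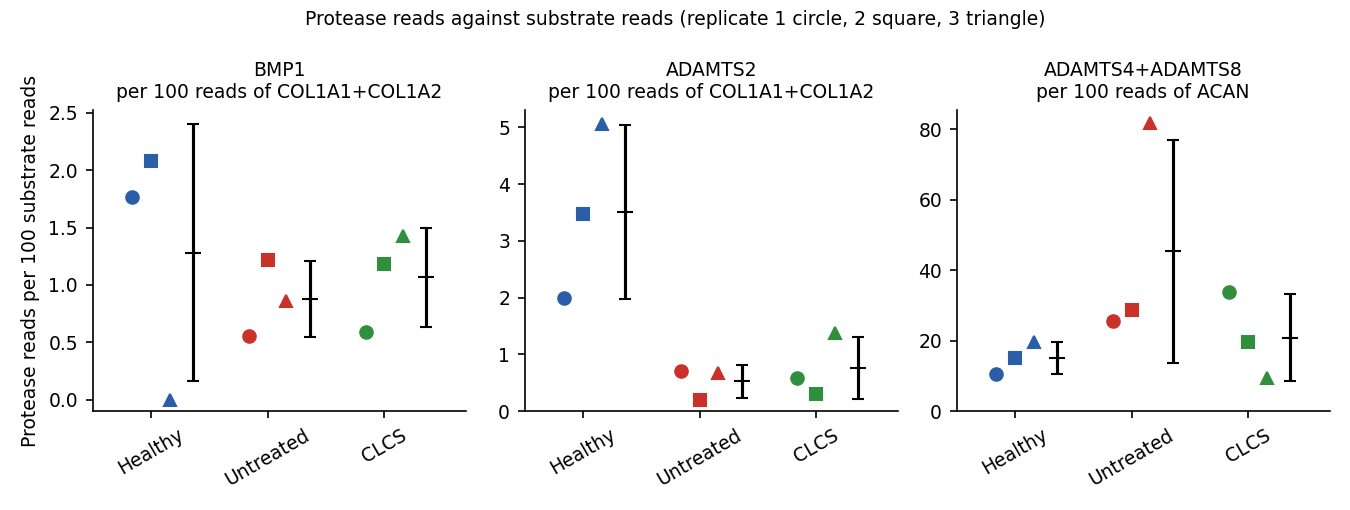
Recovered reads of a protease per 100 reads of its substrate (vertical axis) by group, with points for libraries and bars for the mean ± SD of 3 libraries. ADAMTS2 per type I collagen is highest in the healthy libraries (1.99 to 5.06), which have the fewest reads of these collagens. ADAMTS4 plus ADAMTS8 per ACAN reaches 81.8 in untreated replicate 3.

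Summed levels of fibrous tissue, bone and macrophage markers were higher in all defect libraries than in healthy ones, as were the reads of BMP1. The summed level of the 13 of 15 fibrous tissue markers with a row was 581 to 906 normalized reads in healthy, 1811 to 5186 in untreated and 2507 to 4185 in CLCS libraries. Of the 7 tested, 3 rose in each comparison, COL1A1, COL1A2 and POSTN. PDGFRA had means of 19.2, 17.3 and 14.2 and FAP of 4.92, 3.77 and 3.21 normalized reads in healthy, untreated and CLCS samples, so not all of the list were higher in the defects. For 9 of 10 bone markers it was 308 to 921, 986 to 2985 and 1864 to 2430, with at most 3 reads of SP7 in any library. SOST, at 0 in healthy samples, had 1 read in untreated and 0 in CLCS samples. Of the 5 bone markers tested, limma called 0 in untreated and 1 in CLCS samples, IBSP, which was higher. For 9 of 12 monocyte and macrophage markers the summed level was 35.2 to 41.6, 49.0 to 232 and 66.0 to 79.6. The 232 of untreated replicate 3 included 150.5 from TYROBP. CD163 and C1QA were at 0 in healthy samples. CD163 had 1 read in untreated and 0 in CLCS samples. C1QA had 12 reads in untreated samples, all in 1 library, and 4 in CLCS samples. Of the 3 tested in each comparison, 1 lay above all healthy libraries, CSF1R in untreated and TYROBP in CLCS samples, and 1, AIF1, below. TYROBP was called higher by limma in CLCS samples (27.9 to 34.9 against 6.60 to 9.03 normalized reads in healthy libraries). AIF1 had 10.8 to 14.2 normalized reads in healthy, 7.09 to 9.97 in untreated and 4.98 to 9.84 in CLCS libraries. The other lists, that of cartilage included, overlapped healthy samples in at least 1 defect group. Of the cartilage markers, 9 were tested in each comparison. In untreated samples all 9 were lower, 4 of them below all healthy libraries, against 10.7% of all genes. In CLCS samples 5 were lower and 4 higher. In each comparison limma called 1, CILP, which was lower. CILP had 436 to 1332 normalized reads in healthy, 64.4 to 145 in untreated and 116 to 152 in CLCS libraries. The 8 endothelial markers summed to 3.61 to 9.42, 5.44 to 14.2 and 7.47 to 19.6, with PECAM1 and VWF at 0 in healthy samples, and 7 of 9 skeletal muscle markers to 24.5 to 52.4, 16.3 to 20.5 and 15.7 to 27.4. The part of these markers in the BMP1 difference was not tested. In bulk tissue a change in the number of cells of a type and in RNA per cell cannot be told apart.

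The genes most like ADAMTS4, ADAMTS8, ADAMTS2 and BMP1 over the 9 libraries were named by the Pearson correlation of log2 normalized reads plus 1 among 3113 genes, as a description. All points share the 9 libraries and their groups. BMP1 was most like MTUS1 (0.96), ANKRD52 (0.95) and COL1A1 (0.95), ADAMTS2 most like HIRIP3 (0.94), RBFOX2 (0.93) and TNC (0.93), and ADAMTS4 most like SGCE (0.95), RHBDD3 (0.91) and WDR31 (0.91). ADAMTS8 was most like LPAR1 (0.93), HECTD2 (0.93) and DTNB (0.91). Between members the highest correlation was that of BMP1 and ADAMTS2 (0.58), and the aggrecanases ADAMTS4 and ADAMTS8 had -0.30. By the RefSeq gene table of the mOryCun1.1 assembly, which differs from the oryCun2.0 assembly of the reads, BMP1 lies within 1000 bases of SFTPC, ADAMTS10 within 1000 bases of MYO1F, and ADAMTS2 overlaps ZNF354C. ADAMTS8 overlaps the long noncoding RNA gene LOC103348879, ADAMTS10 overlaps LOC127487775 and LOC138845846 of that kind, and ADAMTS2 the pseudogene LOC108178961. ZNF354C has no row. SFTPC had 0 to 10 reads per library, highest in healthy replicate 3 where BMP1 had 0, and MYO1F had 4 to 29. The strand setting of the count is not given in the sources used here, so reads of overlapping genes cannot be told apart.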

How the data were processed

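RNA sequencing of 9 rabbit cartilage libraries was analysed, 3 per group, grouped by the sample titles. According to the methods, the authors prepared TruSeq libraries from polyA RNA, mapped them against oryCun2.0 by TopHat and Bowtie, discarded multiple alignments, counted with eXpress and normalized with DESeq2. Versions, annotation release and strand setting are not given in the sources used here. The deposited signal per gene is the read count divided by the size factor of the library: every value was a whole multiple of the column's smallest value above 0, within 0.001 reads for 100% of values, and this step equalled the inverse DESeq2 size factor within 4.88e-10. The 3 healthy columns stand in both tables with identical values and were used once.

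Because the values are normalized, the main test was limma 3.58.1 (R 4.3.3) on log2 of the value plus a pseudocount of 1, on the 6 libraries of a comparison and genes that filterByExpr (edgeR 4.0.16) retained from the recovered reads, with Benjamini-Hochberg adjustment over all genes and calls under 0.05. All 5 members passed that filter in each comparison. The quasi-likelihood test of edgeR and DESeq2 1.42.0 were run on the recovered reads as alternatives. The trend fit of limma and DESeq2 on all 9 libraries were chosen after the data were seen. Ratios were compared by exact permutation over libraries. The pipeline was tested on simulated data. Totals of 724986 to 1226408 reads limit the precision, and intervals of limma cover the spread between libraries.

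Members and gene lists were chosen with earlier results of these data known. Named are all members, list genes that were called or among the 3 with the highest mean in their list, and the 3 genes most like each member, which for ADAMTS10 are not reported here. ADAMTS1 and ADAMTS5 are both named for their role, after their values were seen. The pairing of equal replicate numbers was checked by the correlation of deviations from group means over 3812 genes: 0.28, 0.14 and 0.19 for CLCS and healthy, 0.25, 0.33 and 0.30 for CLCS and untreated, and 0.29, 0.13 and -0.04 for untreated and healthy libraries. Libraries of unequal number were not correlated, so these values do not settle whether equal numbers are pairs. The main fits and the permutation tests did not pair libraries. A limma fit with the replicate number as a block was run as an alternative in each comparison.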

Additional observations from a re-analysis of the deposited data

How the results depend on the processing

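Members rested on 0 to 82 reads per library and on 3 libraries per group, which limits all values. The estimates of BMP1 against healthy samples kept their direction under all 16 alternatives in each comparison. BMP1 passed the threshold in untreated samples with DESeq2 on all 9 libraries (2.45), and in CLCS samples with a pseudocount of 5 (1.81), DESeq2 on 6 libraries (2.75) and on all 9 (2.73) and without healthy replicate 1 (3.57). The number of members called was then 1 in place of 0. No other member passed under any alternative. Leaving out a library moved BMP1 between 1.75 and 3.30 in untreated and between 2.03 and 3.57 in CLCS samples, and the number of members called in CLCS samples between 0 and 1.

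Differences that changed sign when a library was left out had not passed a test. ADAMTS8 ranged from -0.98 to 0.021 in CLCS against healthy and from -0.35 to 0.65 in CLCS against untreated samples (-0.27 without untreated replicate 3), and ADAMTS2 from -0.32 to 1.03 in the latter. The ratio of BMP1 to ADAMTS2 between CLCS and untreated samples ranged from -0.75 to 0.61 and was 0.14 without CLCS replicate 1, 0.11 without CLCS replicate 3 and 0.61 without untreated replicate 2, and that of ADAMTS2 to the aggrecanases ranged from -0.14 to 1.31, with -0.02 without CLCS replicate 3 and -0.14 without untreated replicate 2. Per 100 substrate reads, BMP1 in CLCS against healthy samples ranged from -0.856 to 0.186, with 0.025 without CLCS replicate 1, 0.0271 without healthy replicate 1 and 0.186 without healthy replicate 2, ADAMTS2 in CLCS against untreated samples from -0.074 to 0.456, lowest without CLCS replicate 3, and the aggrecanases in CLCS against healthy samples from -0.69 to 11.6, lowest without CLCS replicate 1. The cause was not tested.

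Over all genes, 89 were called in untreated and 104 in CLCS samples. These numbers were 20 and 13 without the filter, where more genes were tested, 269 and 244 with DESeq2, 360 and 223 with DESeq2 on all 9 libraries, and 173 in untreated samples with all 9 libraries in limma. Without a library they lay between 2 and 7 in untreated and between 0 and 81 in CLCS samples, the 0 without CLCS replicate 1.

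With the replicate number as a block, BMP1 had an adjusted p of 0.129 in untreated and 0.0690 in CLCS samples at the same differences (2.60 and 2.88), and 94 and 125 genes were called. The block changed no call of a member, and ADAMTS2 in CLCS against untreated samples had an unadjusted p of 0.150 with it against 0.576 without.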
